A study of Chlamydomonas reinhardtii with 27 samples.

Results

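The genes described here had high RNA levels in control cells and in cells kept in NaCl for 24 h, and lower levels at 2, 4, 8, 12 and 48 h of the same treatment. They were chosen by a score, the lower of the control and 24 h levels minus the highest of the 2, 4, 8, 12 and 48 h levels, each level being log2(mean FPKM + 1) over the 3 libraries of a condition (FPKM is a read level scaled to gene length and library size). Of the 19267 identifiers, 10652 were CHLREDRAFT rows with a summed count of at least 1350 and could be chosen. The 150 highest scores were taken and 7 rows were left out by the rule, 5 of which stood among the 150, so that 145 genes remained, called members from here on. The 5 rows included a light-harvesting protein of photosystem I and an oxygen-evolving enhancer protein of photosystem II, as the study names them.

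The cells were of the wild-type strain GY-D55 of *Chlamydomonas reinhardtii*, a unicellular freshwater green alga, grown in BG-11 medium under 16 h of light and 8 h of dark. Polyadenylated RNA was sequenced from cells cultured without NaCl (control) and from cells collected after NaCl was brought to 200 mM, at 4 early times (2, 4, 8 and 12 h) and 4 later ones (24, 48, 72 and 96 h), with 3 libraries in each of the 9 conditions. There was 1 control group, whose sampling time is not given in the sources used here, so that salt, culture age and time of day cannot be told apart in a comparison with it. The 24, 48, 72 and 96 h samples lay whole days apart. It is not given whether the 3 libraries of a condition came from separate cultures, and p-values measure only the spread between these libraries.

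Sodium chloride puts freshwater algal cells under osmotic and ionic stress, and early salt stress in *Chlamydomonas* is known to slow growth and photosynthesis. Many nuclear genes of this alga also follow the light-dark cycle, with RNA that is abundant at one time of day and scarce at another. Sequencing of polyadenylated RNA measures the balance of synthesis and decay of each RNA as a share of all RNA in the culture, so that a lower level in every cell and a low level in some of the cells cannot be told apart.

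The libraries held 15286332 to 24783139 counts, with a median of 18749997. The 50 most counted genes took 20.4% to 41.1% of them, and the 2 libraries that stood apart within their condition were 2 h replicate 1 (37.6%) and 72 h replicate 1 (41.1%). These 2 libraries also held the lowest share of counts on the members in their conditions, and their part in the results was not tested beyond the counts without them that are given below.

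The median member was an abundant gene in control that had lost most of its RNA by 2 h. It had made up most of its log2 fall at 24 h, without reaching its control level, and was low again at 48 h. The rule chose this shape, and the levels that follow describe it without a test. Mean control levels ran from 4.21 to 2004 FPKM, with a median of 67.7 against 12.4 for all rows that could be chosen. The median member stood at 6.10 on the log2(mean FPKM + 1) scale in control, at 3.74 at 2 h, 3.86 after 4 h, 3.67 at 8 h, 4.22 after 12 h, 5.36 at 24 h and 4.04 after 48 h. At 72 and 96 h, which the rule did not use, it stood at 4.30 and 4.28. The median of all rows that could be chosen stayed between 3.65 and 3.74 over the 9 conditions.

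The share of all counts that fell on the members followed the same course. It was 4.98% ± 0.572 (SD, n = 3) in control, 0.871% ± 0.329 at 2 h and 2.91% ± 0.136 at 24 h. It was then 1.38% ± 0.0324 at 48 h, 1.59% ± 0.348 after 72 h and 1.95% ± 0.0172 at 96 h. The 3 libraries at 24 h (2.83% to 3.07%) lay below the 3 control libraries (4.58% to 5.63%) and above every library of the other salt conditions, and the 3 libraries after 96 h (1.93% to 1.96%) lay above those at 48 h (1.35% to 1.41%). This share was carried by few genes, since the 38 members with a mean control level above 300 FPKM held 83.2% of the members' control counts. Genes at such a level made up 26.2% of the members and 3.24% of the rows that could be chosen. The rule favoured high control levels, so this difference describes the choice of members.

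**Figure D1:**
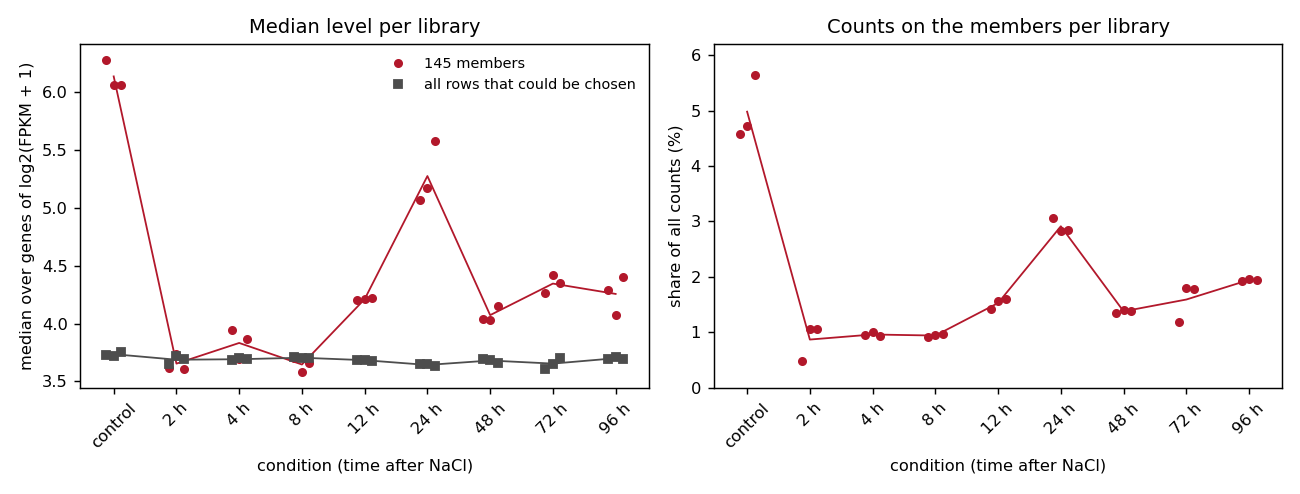
The left panel plots the median of log2(FPKM + 1) over the 145 members (circles) and over all rows that could be chosen (squares) in each library, and the right panel plots the percent of all counts that fell on the members, with 3 libraries (points) and their mean (line) per condition. Member levels were highest in control (4.58% to 5.63% of counts), second at 24 h (2.83% to 3.07%), and the median of all rows was flat.

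The fall from control to the lowest of the 5 conditions ranged from 0.95 to 7.85 on the log2(mean FPKM + 1) scale, with a median of 2.60. The lowest of the 5 levels was reached at 2 h by 49 members, after 8 h by 49, at 4 h by 20, after 48 h by 18 and at 12 h by 9. The highest of the 5 was at 12 h for 58 members and at 48 h for 42. For most members, then, the level among these 5 that was nearest to the 24 h level was that of the condition just before or just after it. At 24 h the median member had made up 79.5% of its log2 fall (quartiles 63.4% and 92.5%). The 24 h mean was below the control mean for 126 members and above it for 19.

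In single libraries the shape that the rule chose held for most members. For 123 of the 145, each control and 24 h library lay above every library of 2, 4, 8, 12 and 48 h. The pattern was found in 3.67% of all rows that could be chosen. The same libraries had set the score, so nothing is read from this difference. The highest of the 3 libraries at 24 h was replicate 3 for 97 members, against 41.2% of all rows that could be chosen, and replicates 1 and 2 were highest for 24 members each. When 24 h replicate 3 was left out, 116 of the 145 stayed among the 150 highest scores.

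The highest score, 2.63, belonged to CHLREDRAFT_206212 (locus tag CHLRE_12g497653v5). The reference annotation gives no name or product for it or for any other member, and so the members are described by identifier. Its FPKM was 118, 89.8 and 56.8 in the 3 control libraries and 142, 43.4 and 113 at 24 h. Between them it was 0.608, 11.4 and 9.61 at 2 h and 9.45, 11.7 and 10.2 at 12 h. The low value of 0.608 came from 2 h replicate 1. After the return the level was 12.2, 11.8 and 16.4 at 48 h, 7.06, 13.9 and 12.6 after 72 h and 10.2, 9.72 and 13.7 at 96 h. Control and 24 h libraries overlapped, and no library of 48, 72 or 96 h reached either group.

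Another kind of member returned at 24 h and afterwards fell below its early levels. How many of the members did so was not counted. CHLREDRAFT_189401 (CHLRE_04g220850v5) had an FPKM of 867, 717 and 828 in control, 51.0, 133 and 123 at 2 h, and 61.6, 105 and 79.6 at 12 h. At 24 h it was 524, 349 and 347. It then dropped to 22.6, 21.3 and 40.0 at 48 h, to 8.41, 20.8 and 12.9 after 72 h and to 16.3, 22.8 and 13.7 at 96 h, so that every library from 48 h on lay below every library from 2 to 24 h. Its log2 fold change from control at 72 h, -5.79 ± 0.39 (SE of edgeR's quasi-likelihood fit), was the lowest of the 145. CHLREDRAFT_180238 (CHLRE_12g557850v5) behaved alike at a lower level, with 165, 191 and 121 in control, 17.5 to 49.1 in the libraries from 2 to 12 h, 194, 109 and 78.9 at 24 h, and 8.29, 9.50 and 4.30 at 96 h. CHLREDRAFT_189909 (CHLRE_01g031650v5) shared this late fall in its means, but not in every library. Its mean FPKM was 5.51 at 72 h and 5.59 at 96 h, below the 7.01, 6.31, 14.2 and 14.9 at 2, 4, 8 and 12 h. It had 130, 99.8 and 108 in control, 6.15, 7.30 and 5.48 at 4 h, 70.7, 30.0 and 46.8 after 24 h and 6.61, 5.21 and 4.94 at 96 h, so that the 4 and 96 h libraries overlapped. Its lowest library, 0.664, was again 2 h replicate 1.

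A further kind fell furthest at 8 h, came back only in part at 24 h and dipped again at 48 h. Its 96 h mean lay above its 24 h mean, which held for only 12 of the 145 members. CHLREDRAFT_184471 (CHLRE_06g283050v5) went from 2590, 1639 and 1749 FPKM in control to 8.63, 7.49 and 6.88 at 8 h. It stood at 153, 204 and 253 at 24 h, at 80.9, 75.0 and 89.1 after 48 h and at 282, 234 and 309 at 96 h. The 24 h and 96 h libraries overlapped, and both groups lay far below control. CHLREDRAFT_192961 (CHLRE_06g278213v5) had the lowest log2 fold change from control at 24 h, -3.24 ± 0.25. Its FPKM was 553, 511 and 854 in control, 2.37, 1.58 and 2.21 at 8 h, 51.8, 70.0 and 70.6 after 24 h, 21.7, 26.0 and 26.0 after 48 h and 115, 115 and 132 at 96 h. Here the 96 h libraries lay above all 24 h libraries.

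CHLREDRAFT_168073 (CHLRE_10g452050v5) and CHLREDRAFT_186299 (CHLRE_10g425900v5) shared this course. The first, whose fall of 7.85 on the log2(mean FPKM + 1) scale was the deepest of all members, had 844, 652 and 702 FPKM in control, 2.32, 1.53 and 2.66 at 8 h, 96.0, 121 and 142 after 24 h, 26.0, 28.2 and 31.9 at 48 h and 163, 134 and 174 after 96 h. The second had 819, 689 and 815 in control, 3.28, 3.20 and 2.48 at 8 h, 112, 150 and 171 after 24 h, 38.8, 45.2 and 43.9 at 48 h and 197, 169 and 219 after 96 h. In both, the 3 libraries at 48 h lay below those at 24, 72 and 96 h without overlap. CHLREDRAFT_184490 (CHLRE_06g285250v5) kept more of its level at 24 h, with 1343, 1266 and 1890 in control, 21.4, 21.3 and 21.4 after 8 h, 749, 895 and 986 at 24 h and 176, 185 and 197 after 48 h. CHLREDRAFT_184775 (CHLRE_03g156900v5) had 352, 329 and 695 in control, 2.66, 2.73 and 2.72 at 8 h, 149, 195 and 218 after 24 h and 28.4, 31.0 and 34.0 at 48 h. The 8 h replicates of these 2 genes were nearly equal while their control replicates spread widely, with replicate 3 highest. In both, log2(mean FPKM + 1) was lower at 96 h (8.15 and 6.16) than at 24 h (9.78 and 7.56). CHLREDRAFT_143990 (CHLRE_03g168950v5) was the only member with no more than 3 counts in each library of a condition. Its FPKM was 26.8, 22.7 and 41.9 in control and 0, 0 and 0.0635 at 8 h, and its 24 h mean rested on replicate 2 (1.45, 8.31 and 1.69).

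The only member that the study lists as a transcription factor was CHLREDRAFT_126810 (CHLRE_06g268600v5), of the CSD family. It is matched there to *Arabidopsis thaliana* AT4G36020, a cold shock domain protein, and such proteins in *A. thaliana* bind RNA and are known from work on cold. The gene had an FPKM of 301, 215 and 224 in control, 7.90, 10.7 and 7.81 at 2 h, 15.8, 14.8 and 18.7 after 4 h and 2.43, 2.19 and 2.21 at 8 h. It stood at 30.5, 35.1 and 33.5 at 12 h and at 95.2, 112 and 134 at 24 h. It was 31.7, 33.5 and 35.3 at 48 h, 51.4, 66.1 and 50.3 after 72 h and 63.1, 50.5 and 62.9 at 96 h. The 12 h and 48 h libraries overlapped, and the 72 and 96 h libraries lay between those of 48 h and 24 h.

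**Figure D2:**
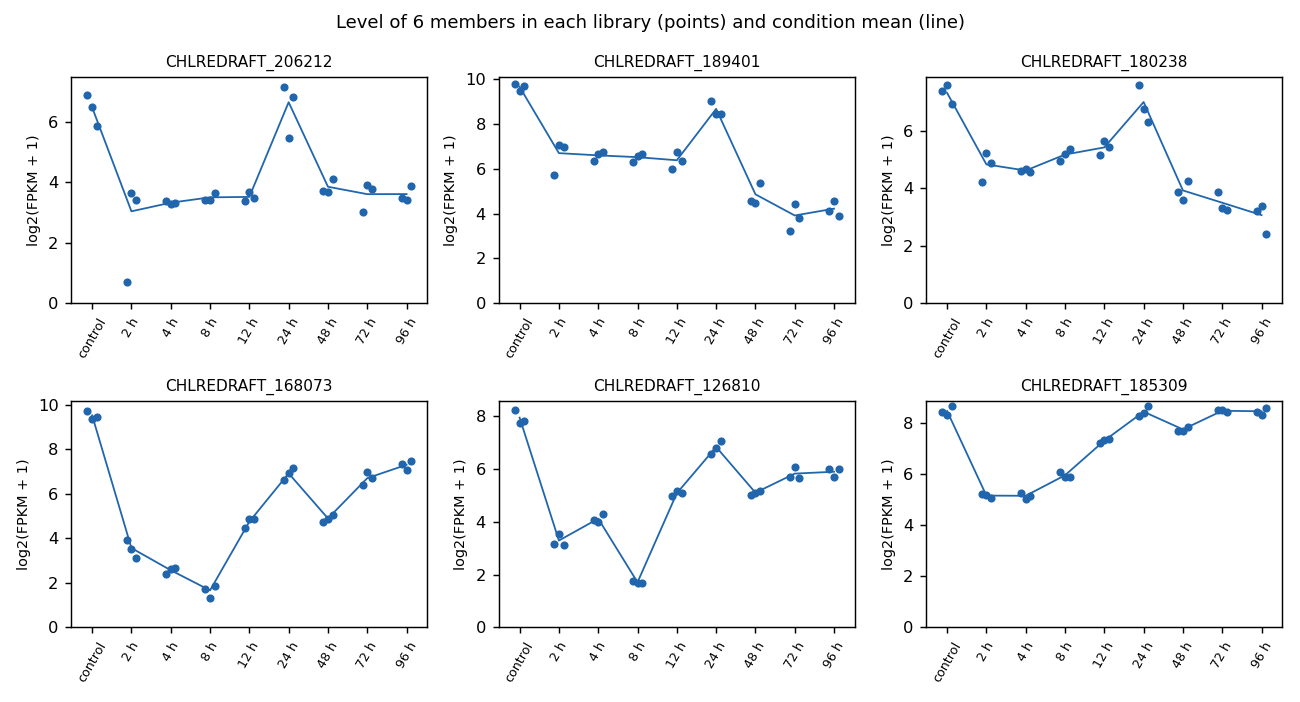
Each panel plots log2(FPKM + 1) of 1 member in the 27 libraries (points, 3 per condition) with the condition mean (line). CHLREDRAFT_189401 and CHLREDRAFT_180238 were below their 2 to 12 h levels at 72 and 96 h, CHLREDRAFT_168073 and CHLREDRAFT_126810 were lowest at 8 h, and the CHLREDRAFT_185309 libraries of 24, 72 and 96 h overlapped those of control.

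Whether the return at 24 h was complete differed among members. On the log2(mean FPKM + 1) scale, 68 members were within 0.5 of control at 24 h, and 42 were at least 1 below it. With the quasi-likelihood test of edgeR and Benjamini-Hochberg adjustment, 69 members were called lower and 3 higher at 24 h than in control, where 24% and 24.9% of the 16443 genes tested were called. Both conditions entered the rule, and nothing is read from these counts. All 3 control libraries lay above all 3 libraries of 24 h for 79 of the 145 members, against 30.2% of the rows that could be chosen. The reverse held for 4 of the 145, against 26.7% of those rows. These libraries had also entered the rule. The 3 called higher were CHLREDRAFT_193441, with 7.87, 10.8 and 7.11 FPKM in control and 13.1, 16.3 and 14.6 at 24 h, CHLREDRAFT_136589 (CHLRE_01g015350v5) and CHLREDRAFT_190792 (CHLRE_12g544000v5). CHLREDRAFT_136589 had 427, 372 and 517 in control and 612, 544 and 602 at 24 h, and CHLREDRAFT_190792 had 17.2, 16.9 and 18.6 against 22.5, 23.5 and 22.5. In these 3 genes all 24 h libraries lay above all control libraries.

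The levels at 72 and 96 h were not used to choose the members, and they show what followed the second fall. Most members stayed low. At 72 h, 127 members were called lower than control and 0 higher, where 26.6% and 28.7% of all genes tested were called in those directions, and at 96 h 133 were lower and 0 higher, where 26% and 28% were. At an unadjusted p below 0.05, 130 and 135 members were lower and 0 higher, where 9868 and 9610 of the 16443 genes tested passed in either direction. DESeq2 called 130 and 136 members lower and 0 higher, and its calls over all genes were not counted. The median log2 fold change of the members was -1.49 at 72 h and -1.60 at 96 h, and that of all genes tested was 0.02 and 0.00. The members had been chosen for high control levels, which by itself favours this direction. Of the 73 members with no call between 24 h and control, 55 were called lower than control at both 72 and 96 h. This joint pattern was not counted over all genes tested.

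Against 24 h, 93 members were called lower at 72 h, where 9.71% of all genes tested were, and 99 at 96 h, where 10.7% were. The 24 h libraries had also entered the rule. At 72 h 0 members were called higher than at 24 h, where 9.95% of all genes tested were. At an unadjusted p below 0.05, 1 member was higher, where 5340 of the 16443 genes tested passed in either direction. At 96 h, 3 members were called higher than at 24 h, where 10.9% of all genes tested were. The 3 were CHLREDRAFT_192961, CHLREDRAFT_183363 (CHLRE_16g687900v5) and CHLREDRAFT_184397 (CHLRE_16g673650v5), the last 2 named here after their values were seen. CHLREDRAFT_184397 had 247, 322 and 363 FPKM at 24 h and 567, 529 and 597 at 96 h, against 1827, 1736 and 2327 in control.

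Only 11 members were called at neither 72 nor 96 h against control, a pattern that was not counted over all genes tested. The lack of a call does not show a return to the control level, since the log2 fold changes of these members at 96 h ran from -1.37 ± 0.62 to 0.05 ± 0.16. CHLREDRAFT_185309 (CHLRE_03g199535v5) had an FPKM of 346, 313 and 399 in control, 36.1, 35.1 and 32.9 at 2 h, 304, 330 and 403 after 24 h and 205, 207 and 229 at 48 h. It was 363, 362 and 339 at 72 h and 346, 319 and 386 at 96 h, and these libraries overlapped those of control and 24 h. Its log2 fold change from control was 0.05 ± 0.13 at 72 h and 0.04 ± 0.13 at 96 h. CHLREDRAFT_136810 (CHLRE_01g050950v5) had the highest log2 fold change from control at 72 h, 0.17 ± 0.16, with 425, 383 and 527 in control, 268, 257 and 274 after 48 h, 591, 473 and 403 at 72 h and 461, 400 and 476 after 96 h. CHLREDRAFT_173545 (CHLRE_09g390500v5), a gene of low level that was called lower at 96 h and not at 72 h, had 9.70, 11.9 and 9.67 in control, 10.5, 11.7 and 7.07 at 72 h and 8.08, 5.79 and 5.65 at 96 h. Its 96 h libraries all lay below those of control. In CHLREDRAFT_185309 and CHLREDRAFT_136810 the 48 h libraries lay below those of control, 24, 72 and 96 h, and the later libraries overlapped those of control.

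Between 48 and 72 h, 24 members were called higher and 0 lower, where 1.67% and 1.33% of all genes tested were. In the same comparison 58 members had an unadjusted p below 0.05, 55 of them higher, where 2931 of the 16443 genes tested passed in either direction. DESeq2 called 38 members higher and 1 lower, again without a count over all genes. Between 48 and 96 h, 26 were called higher and 1 lower, where 1.79% and 1.56% were. The median log2 fold change of the members was 0.24 at 72 h and 0.21 at 96 h, against -0.03 and -0.01 for all genes tested, and 103 and 98 of the 145 members had values above 0. The members had been chosen for low levels at 48 h, the other arm of both comparisons, and both share the 48 h libraries. The count at 72 h depended on the fit, with 9 members called from only the 6 libraries compared. At 96 h it was 43 from only the 6 libraries and 41 without 2 h replicate 1 and 72 h replicate 1. Without single libraries of the conditions compared, the counts were 16 to 26 at 72 h and 19 to 27 at 96 h. For these alternative fits, calls over all genes were not counted.

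**Figure D3:**
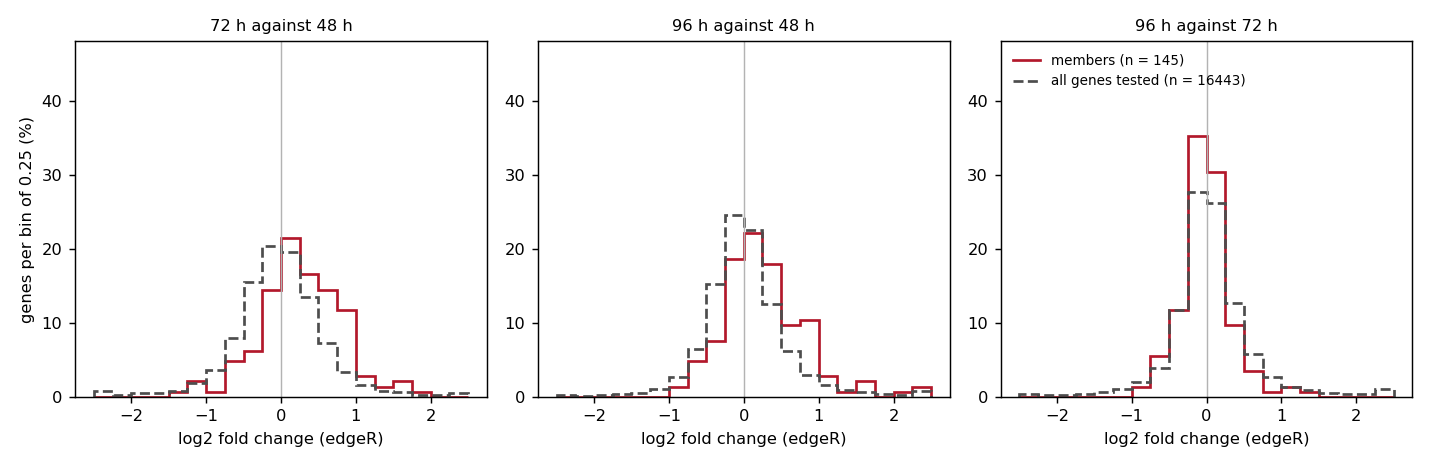
The panels plot the percent of genes in bins of 0.25 of the log2 fold change from edgeR for 72 h against 48 h, 96 h against 48 h and 96 h against 72 h, for the 145 members (solid line) and all 16443 genes tested (dashed line), with values beyond the axis put in the end bins. The members' medians were 0.24, 0.21 and -0.02, and those of all genes were -0.03, -0.01 and 0.01.

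Together 29 members were called higher than 48 h at 72 or 96 h, 21 of them at both, patterns that were not counted over all genes tested. The 29 were, at the median, more abundant in control and fell further than the other members. Their median control level was 445 FPKM against 45.5 for the other 116 members. A control level above 300 FPKM was found in 19 of the 29 and in 19 of the other 116. Their median difference from control on the log2(mean FPKM + 1) scale was -3.95 at 8 h, -1.11 after 24 h, -2.84 at 48 h and -1.80 after 96 h, against -1.89, -0.43, -1.62 and -1.46 for the others. None of the 29 had its lowest of the 5 levels at 48 h, as 18 of the others did, and 14 had it at 8 h. The 29 were defined by their calls, which genes with more counts reach more readily, and no test was made between the groups.

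The largest differences in this group were those of CHLREDRAFT_168073, with a log2 fold change of 1.81 ± 0.20 at 72 h and 2.42 ± 0.21 at 96 h against 48 h. It was followed at 96 h by CHLREDRAFT_192961 (2.27 ± 0.24), CHLREDRAFT_186299 (2.17 ± 0.24) and CHLREDRAFT_184471 (1.72 ± 0.23). The CSD gene CHLREDRAFT_126810 was among the 29, at 0.70 ± 0.17 and 0.79 ± 0.17. The 1 member called lower at 96 h than at 48 h was CHLREDRAFT_182175, named here after its values were seen. It had 667, 588 and 607 FPKM in control, 566, 606 and 698 at 24 h, 196, 169 and 222 after 48 h and 135, 106 and 144 at 96 h.

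The comparison of 96 h with 72 h was the one in which neither condition had entered the rule. With the quasi-likelihood test of edgeR and Benjamini-Hochberg adjustment 0 of the 145 members were called, where 0.164% of all genes tested were. At an unadjusted p below 0.05 there were 18 members, 8 of them higher at 96 h, where 1277 of the 16443 genes tested passed in either direction. DESeq2 called 1 higher and 3 lower of the 54 members to which it gave an adjusted p. The median log2 fold change of the members was -0.02 (quartiles -0.18 and 0.17), and that of all genes tested was 0.01 (quartiles -0.20 and 0.26). Without 2 h replicate 1 and 72 h replicate 1, 1 member was called higher and 1 lower. For DESeq2 and for this fit, calls over all genes were not counted.

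At the low end of this comparison single libraries stood out. CHLREDRAFT_154307 (CHLRE_03g180750v5) had the lowest log2 fold change, -0.87 ± 0.32 (adjusted p = 0.48, the quasi-likelihood test of edgeR and Benjamini-Hochberg adjustment), with 9.75, 6.18 and 3.59 FPKM at 72 h and 3.07, 2.42 and 5.02 at 96 h. CHLREDRAFT_174407 (CHLRE_16g676645v5) had 12.5, 6.54 and 6.09 at 72 h and 3.77, 5.26 and 4.81 at 96 h. CHLREDRAFT_147968 (CHLRE_12g546150v5), a gene with 1374, 991 and 1447 in control, had 664, 373 and 315 at 72 h and 263, 270 and 310 at 96 h. In each of these 3 genes the highest of the 6 libraries compared was 72 h replicate 1, the library with 41.1% of its counts in 50 genes. At the other end CHLREDRAFT_179436 (CHLRE_14g609600v5) had the highest log2 fold change, 1.44 ± 0.62 (adjusted p = 0.58 in the same test), with 1.35, 0.925 and 2.59 at 72 h and 5.85, 5.14 and 2.63 at 96 h. CHLREDRAFT_173338 (CHLRE_12g549600v5) had 1.31, 5.38 and 3.28 at 72 h and 7.93, 10.1 and 2.91 at 96 h. For this gene the groups overlapped, and 2 h replicate 1 listed it at 0. CHLREDRAFT_194674 (CHLRE_12g497500v5) also stood at this end, with 0, 1.56 and 1.77 at 72 h and 1.34, 4.03 and 2.00 at 96 h, groups that overlapped too.

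Some members were neighbours in the genome. A locus tag of the assembly Chlamydomonas_reinhardtii_v5.5 was found for 136 of the 145 members. When the rows that could be chosen were put in the order of that assembly, the members had 272 neighbouring positions, and 20 of these, or 7.35%, held another member, whereas members made up 1.39% of the rows placed. In 12 groups, with 27 members in all, each member lay no more than 5 reference genes from the last, and in these groups no neighbouring members overlapped in the reference. Position had no part in the rule. The sources do not give whether strand was used in counting or how reads with several matches were treated, and reads shared between similar neighbours were not tested.

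One group held the member with the highest score, CHLREDRAFT_206212, which lay next to CHLREDRAFT_194674, itself next to CHLREDRAFT_194675 (CHLRE_12g497450v5). CHLREDRAFT_194674 had 81.9, 54.9 and 36.9 FPKM in control, 78.4, 16.9 and 41.7 at 24 h, 2.79, 1.34 and 3.13 after 48 h and 0, 1.56 and 1.77 at 72 h. In both it and CHLREDRAFT_206212, control replicate 1 was the highest control library, 24 h replicate 1 the highest and 24 h replicate 2 the lowest of the 24 h libraries. CHLREDRAFT_194675 varied less, with 26.4, 19.5 and 17.1 in control, 27.3, 20.3 and 29.7 at 24 h and 8.99, 8.27 and 6.92 at 48 h. At 72 h CHLREDRAFT_194674 was far below its 8 h level of 7.77, 9.27 and 19.2, whereas CHLREDRAFT_194675 stood above its own of 5.54, 5.01 and 5.86 in all 3 libraries.

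Other neighbours differed in level or in late course. CHLREDRAFT_160258 (CHLRE_12g557900v5), next to CHLREDRAFT_180238, had 1555, 1068 and 978 FPKM in control, 901, 807 and 1054 at 24 h, 181, 165 and 279 after 48 h and 145, 136 and 136 at 96 h. Both genes were lower at 96 h than at any time from 2 to 12 h in every library. CHLREDRAFT_182560 (CHLRE_10g452100v5), separated from CHLREDRAFT_168073 by 1 reference gene, had 309, 257 and 334 in control, 26.1, 24.4 and 22.8 at 8 h, 129, 127 and 139 after 24 h, 59.9, 58.8 and 57.1 at 48 h and 109, 105 and 119 after 96 h, and was also among the 29 late risers. The group of 4 members, CHLREDRAFT_34069, CHLREDRAFT_191510, CHLREDRAFT_191511 and CHLREDRAFT_184386, held mean control levels of 82.8, 76.5, 8.33 and 104 FPKM. Their 24 h means were 73.3, 52.2, 6.45 and 87.7, and their 48 h means 33.8, 18.2, 1.48 and 31.5. CHLREDRAFT_191510 had the largest log2 fall of the 4 from control to 2 h, to a mean of 2.97.

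**Figure D4:**
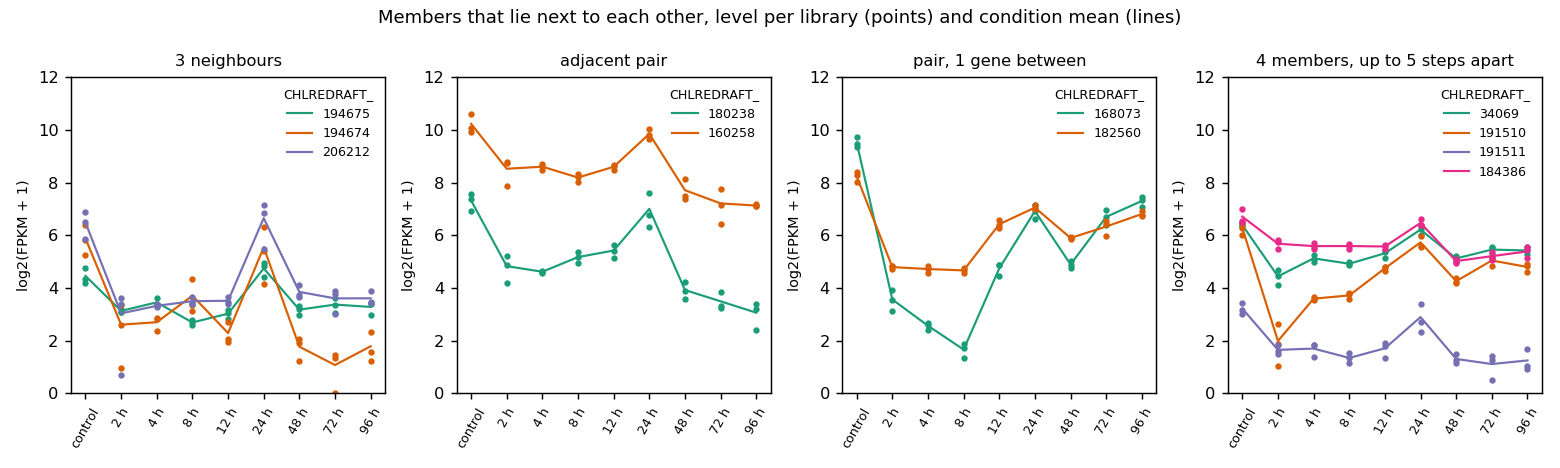
Each panel plots log2(FPKM + 1) for a group of neighbouring members in the 27 libraries (points) with condition means (lines), coloured by gene. As the rule ensured for every member, the mean at 24 h of each gene was above its means at 12 and 48 h. The genes differed in level, as in the group of 4 with mean control levels of 82.8, 76.5, 8.33 and 104 FPKM.

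The threshold cut through a continuous range of scores. The 3 members with the lowest scores were CHLREDRAFT_134235 (CHLRE_06g259900v5), CHLREDRAFT_144095 (CHLRE_03g162601v5) and CHLREDRAFT_194549, the last at 0.61, and the next row outside, CHLREDRAFT_193426 (CHLRE_14g611100v5), stood at 0.60. CHLREDRAFT_134235 had 915, 764 and 845 FPKM in control, 677, 715 and 832 at 24 h and 483, 448 and 515 at 48 h. CHLREDRAFT_193426 had 6.59, 7.74 and 7.82 in control, 6.19, 8.07 and 8.30 at 24 h and 4.71, 4.08 and 4.74 at 48 h. In both genes the 48 h libraries lay below all control and 24 h libraries. CHLREDRAFT_181848 (CHLRE_10g434400v5) and CHLREDRAFT_183538 (CHLRE_01g013350v5), also just outside, had mean levels of 8.71 and 167 in control, 10.1 and 106 at 24 h and 5.39 and 41.4 at 48 h. A score of at least 1 was reached by 33 members. Gene lengths were inferred from the ratio of counts to FPKM and are relative. Their median for the members, 1.40 kb, was close to that of all rows that could be chosen, 1.47 kb.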

How the data were processed

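RNA-seq libraries of *C. reinhardtii* GY-D55 in 9 conditions were grouped by their labels. Counts per gene were deposited by the authors, who ran HISAT2 2.0.5 on filtered reads, StringTie 1.3.3b for new transcripts and featureCounts for counting. Genome and annotation came from Ensembl Genomes (plants). The name of the build, the strand setting and the treatment of reads with several matches are not given in the sources used here. The FPKM values were computed and deposited by the authors from counts and gene lengths. Over 6110 genes their scaling matched median-of-ratios size factors (largest difference 0%) and departed from total counts by up to 80.8%, so that shares of counts were taken from the counts. Total counts of 15286332 to 24783139 per library limit the precision of low genes.

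Members were scored on log2(mean FPKM + 1), a scale that understates changes of low genes. Comparisons used edgeR 4.0.16 in R 4.3.3 on the counts of all 27 libraries, with filterByExpr (16443 genes, all 145 members among them), TMM scaling, a quasi-likelihood test with 1 term per condition and Benjamini-Hochberg adjustment over all genes tested. Calls were two-sided, at an adjusted p below 0.05. SE is the absolute log2 fold change divided by the square root of the F statistic. The fit was tested on simulated data. Alternatives were DESeq2 1.42.0, RLE size factors, other filters, pseudocounts and thresholds, CPM in place of FPKM, medians, a replicate block, only the 6 libraries compared, and leaving out single libraries.

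The members, lists and tests were chosen with earlier results of these data known. Genes named are the 10 highest scores with an entry in the reference table, the 3 lowest scores, the 3 rows just outside, the 3 highest and 3 lowest fold changes of 96 h against 72 h, 72 h against control and 24 h against control, and the listed transcription factor, with neighbours of members and a few others named after their values were seen. The table of Chlamydomonas_reinhardtii_v5.5 matched 12541 of the 19267 identifiers and gave locus tags only, so that lists of genes by function were not used here and no sequence is shown.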

Additional observations from a re-analysis of the deposited data

Results flagged for a closer look

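The difference from control at 72 h differed from that at 48 h for 24 members, all with higher RNA at 72 h, and the difference from control at 96 h differed from that at 48 h for 27 members, 26 of them with higher RNA at 96 h. Both counts come from the quasi-likelihood test of edgeR for the difference between the time points, with Benjamini-Hochberg adjustment over all genes tested. The same test called 1.67% of all genes tested higher at 72 h, and 1.79% higher and 1.56% lower at 96 h. The members were chosen for low levels at 48 h, so the 2 counts are a description and their cause was not tested.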

How the results depend on the processing

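The members called at 72 and 96 h against control kept their number within 1.5 times, and all calls stayed lower than control, under each alternative run. For 96 h against 72 h, DESeq2 gave 4 members and the fit without 2 h replicate 1 and 72 h replicate 1, chosen after seeing the data, gave 2, in place of 0. For 72 h against 48 h the count was 7 with an absolute log2 fold change above 1, 39 with DESeq2 and 9 from only the 6 libraries compared. For 96 h against 48 h it was 10 with an absolute log2 fold change above 1, 43 from only the 6 libraries and 41 without those 2 libraries, and for 24 h against control it was 40 with an absolute log2 fold change above 1. The median member difference of 96 h from control was -1.48 on the log2(mean FPKM + 1) scale, -1.63 with a pseudocount of 0.1 and -1.66 over members with a mean FPKM of at least 5. Under the alternatives given here and below, calls over all genes tested were not counted. A change of the members therefore cannot be told from a change of the whole table. The cause of these changes was not tested, except that a fold change limit removes smaller differences.

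Leaving out single libraries gave 0 to 0 members called for 96 h against 72 h, 114 to 121 for 72 h and 124 to 130 for 96 h against control, 16 to 26 between 48 and 72 h, 19 to 27 between 48 and 96 h, and 64 to 71 for 24 h against control. It kept 113 to 144 members among the highest scores. The median difference from control ranged from -1.55 to -1.44 at 72 h, from -1.55 to -1.43 at 96 h and from -0.69 to -0.53 at 24 h. Other pseudocounts, CPM, medians or no count minimum kept 122 to 134 members.

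Without single libraries the log2 fold change of CHLREDRAFT_206212 at 24 h against control ran from -0.062 to 0.63, that of CHLREDRAFT_194674 from -0.87 to 0.15 and that of CHLREDRAFT_180238 from -0.65 to 0.037. That of CHLREDRAFT_173545 at 72 h against control ran from -0.23 to 0.12, and none of the 4 was called with all libraries. With the replicate number as a block, the counts in the same order of comparisons were 0, 128, 133, 24, 27 and 72. The correlation of same-numbered libraries' deviations ran from -0.17 to 0.23, so that the numbers were not taken to pair the libraries.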
